A study of Mus musculus with 21 samples.

Results

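The genes described here encode the subunits of the proteasome and the factors that activate, inhibit and assemble it. They were taken as every gene model whose symbol is Psm, then a letter from a to g, then a number, with the model of highest summed count where a symbol had several. This gave 48 genes of the 28541 gene models, and each symbol had 1 model.

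RNA was sequenced from brown fat (BAT) and from WV, the white vastus, a thigh muscle made mostly of fast glycolytic fibres, in BATI4KO mice and floxed littermates. From what is known of the study, BATI4KO mice lack Irf4, a transcription factor gene, in brown adipocytes, by a Cre driven from the Ucp1 promoter, so the gene is intact in muscle fibres. Floxed mice, by their name, carry the loxP-flanked allele that BATI4KO mice carry too. The sources used here do not give strain, age, sex or deleted exons. There were 11 BAT libraries (5 floxed, 6 BATI4KO) and 10 from WV (5 and 5). Titles end in a short number in 6 BAT libraries, 3 per genotype (as BAT_FX_1), and in a longer tag in all others (as WV_FX_5415); FX marks floxed and KO marks BATI4KO libraries. Since no label ties libraries to separate animals, p-values refer to spread among libraries, which may be technical.

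BAT libraries held from 20219479 to 41773148 counts, and those of WV from 30479508 to 40328627. Levels are given in CPM, the usual count relative to library size, scaled here by edgeR's trimmed mean of M-values (TMM) over the 21 libraries. Irf4 was at 17.9, 20.7, 22.5, 41.5 and 43.5 CPM in floxed BAT and at 4.92 to 5.95 (median 5.34) CPM in BATI4KO BAT, with no overlap (log2 -2.45, SE 0.24, edgeR adjusted p = 0.00260). In WV it was at 3.54 to 6.66 CPM and 3.07 to 4.25 CPM, and the groups overlapped. Summed levels of 8 adipocyte markers were 5626 to 14050 CPM in BAT and 57.8 to 194.9 CPM in WV. The 10 muscle fibre markers took 21.5 to 35.6% of the counts in WV and 0.0154 to 2.38% in BAT, where the highest was library BAT_KO_3.

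The proteasome degrades proteins tagged with ubiquitin. Its 20S core is a barrel of alpha rings (Psma genes) and beta rings (Psmb genes), and Psmb5, Psmb6 and Psmb7 encode its catalytic subunits. The 19S cap, built from ATPases (Psmc) and non-ATPase subunits (Psmd), recognises and unfolds substrates. Interferon-gamma induces Psmb8, Psmb9 and Psmb10, which replace Psmb5, Psmb6 and Psmb7 to form the immunoproteasome and alter which peptides reach MHC class I, together with the 11S activator subunits Psme1 and Psme2. The transcription factor Nfe2l1 raises constitutive subunit genes when proteasome capacity falls, and it is known for this role in brown fat, while muscle uses the same machinery to remove myofibrillar proteins.

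RefSeq promoter windows, 250 bases before to 50 bases after the start on GRCm38.p6, were matched for 40 of the 48 genes. Shown here are an inducible catalytic subunit, an inducible activator and the constitutive subunits Psmb5 and Psmb6, from classes that stood on opposite sides of the tissue comparison. Among the inducible and the constitutive catalytic genes, only the genes shown had a match to a motif searched. The display is thus not typical of their classes. Psmb8 lies at chr17:34197945-34198244 on the plus strand, Psme1 at chr14:55578244-55578543 on the plus strand, Psmb5 at chr14:54617946-54618245 on the minus strand and Psmb6 at chr11:70525107-70525406 on the plus strand. Each is written 5′ to 3′ in the direction of its gene, and capitals mark a match to the gamma-activated site TTCNNNGAA in Psmb8, to the interferon-stimulated response element GAAANNGAAA, read on the opposite strand, in Psme1, and to the antioxidant response element TGACNNNGC, a site type that Nfe2l1 can bind, in Psmb5 and Psmb6.
Psmb8: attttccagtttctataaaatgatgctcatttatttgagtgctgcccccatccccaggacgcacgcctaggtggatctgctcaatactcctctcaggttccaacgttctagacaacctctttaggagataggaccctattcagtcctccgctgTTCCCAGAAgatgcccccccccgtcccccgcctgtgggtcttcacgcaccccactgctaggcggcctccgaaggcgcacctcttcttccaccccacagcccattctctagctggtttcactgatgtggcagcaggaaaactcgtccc
Psme1: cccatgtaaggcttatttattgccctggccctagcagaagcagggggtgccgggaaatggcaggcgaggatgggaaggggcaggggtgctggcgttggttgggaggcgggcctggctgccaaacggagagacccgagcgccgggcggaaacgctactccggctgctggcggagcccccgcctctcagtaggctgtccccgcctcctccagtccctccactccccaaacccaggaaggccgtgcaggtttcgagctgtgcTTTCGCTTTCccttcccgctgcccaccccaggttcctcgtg
Psmb5: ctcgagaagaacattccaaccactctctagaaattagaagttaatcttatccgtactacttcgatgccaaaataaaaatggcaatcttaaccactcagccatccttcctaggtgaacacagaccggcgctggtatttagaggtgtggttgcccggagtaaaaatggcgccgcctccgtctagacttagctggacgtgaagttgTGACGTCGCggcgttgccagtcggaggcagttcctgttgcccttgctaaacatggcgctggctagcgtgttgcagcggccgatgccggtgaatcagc
Psmb6: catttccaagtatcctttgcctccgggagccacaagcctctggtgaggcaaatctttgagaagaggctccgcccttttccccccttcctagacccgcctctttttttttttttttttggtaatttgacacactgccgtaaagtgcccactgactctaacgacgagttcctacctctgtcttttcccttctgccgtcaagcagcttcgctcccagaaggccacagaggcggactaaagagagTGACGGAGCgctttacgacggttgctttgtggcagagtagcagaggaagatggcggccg

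The 3 motifs were searched on both strands, and their matches are descriptions of letters, not of binding. The antioxidant element occurred in 6 of the 40 genes (Psmb5, Psmb6, Psmc6, Psmd9, Psmd12 and Psme4), or 15.0%, beside 14% of the 27025 genes with a window, and in none of the 5 inducible genes. The interferon-stimulated element occurred in 5 (Psmb3, Psmd4, Psmd9, Psme1 and Psmg4), or 12.5%, beside 3.99% of all genes, and in 1 of the 5 inducible genes. The gamma-activated site occurred in 3 (Psmb8, Psmd2 and Psmg1), or 7.5%, beside 9.55% of all genes, and in 1 of the 5 inducible genes.

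Levels differed widely among the subunits when set per kilobase of gene model. In floxed BAT the alpha ring gene Psma6 had 86.7 ± 14.8 CPM per kilobase (SD, n = 5) and the beta ring gene Psmb4 66.6 ± 14.5. The inducible activators Psme1 and Psme2 had 42.9 ± 3.99 and 45.6 ± 9.88 there, and thus stood among the core subunits. The inducible catalytic genes were lower than these 4, at 8.40 ± 3.06 for Psmb8, 5.46 ± 1.65 for Psmb9 and 6.93 ± 1.35 for Psmb10. In floxed WV Psmb4 (128 ± 7.27), the 19S scaffold gene Psmd2 (127 ± 12.3) and the 19S gene Psmd6 (117 ± 14.1) had the highest means, with overlapping SDs, and Psmb9 had 1.26 ± 0.522. The 2 genes known for expression in other organs were near the floor everywhere: the thymic Psmb11 had at most 0.528 CPM per kilobase as a group mean, and the testicular Psma8 had 0 to 5 counts in any library and was not tested. In each comparison 47 of the 48 genes were therefore tested.

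**Figure D1:**
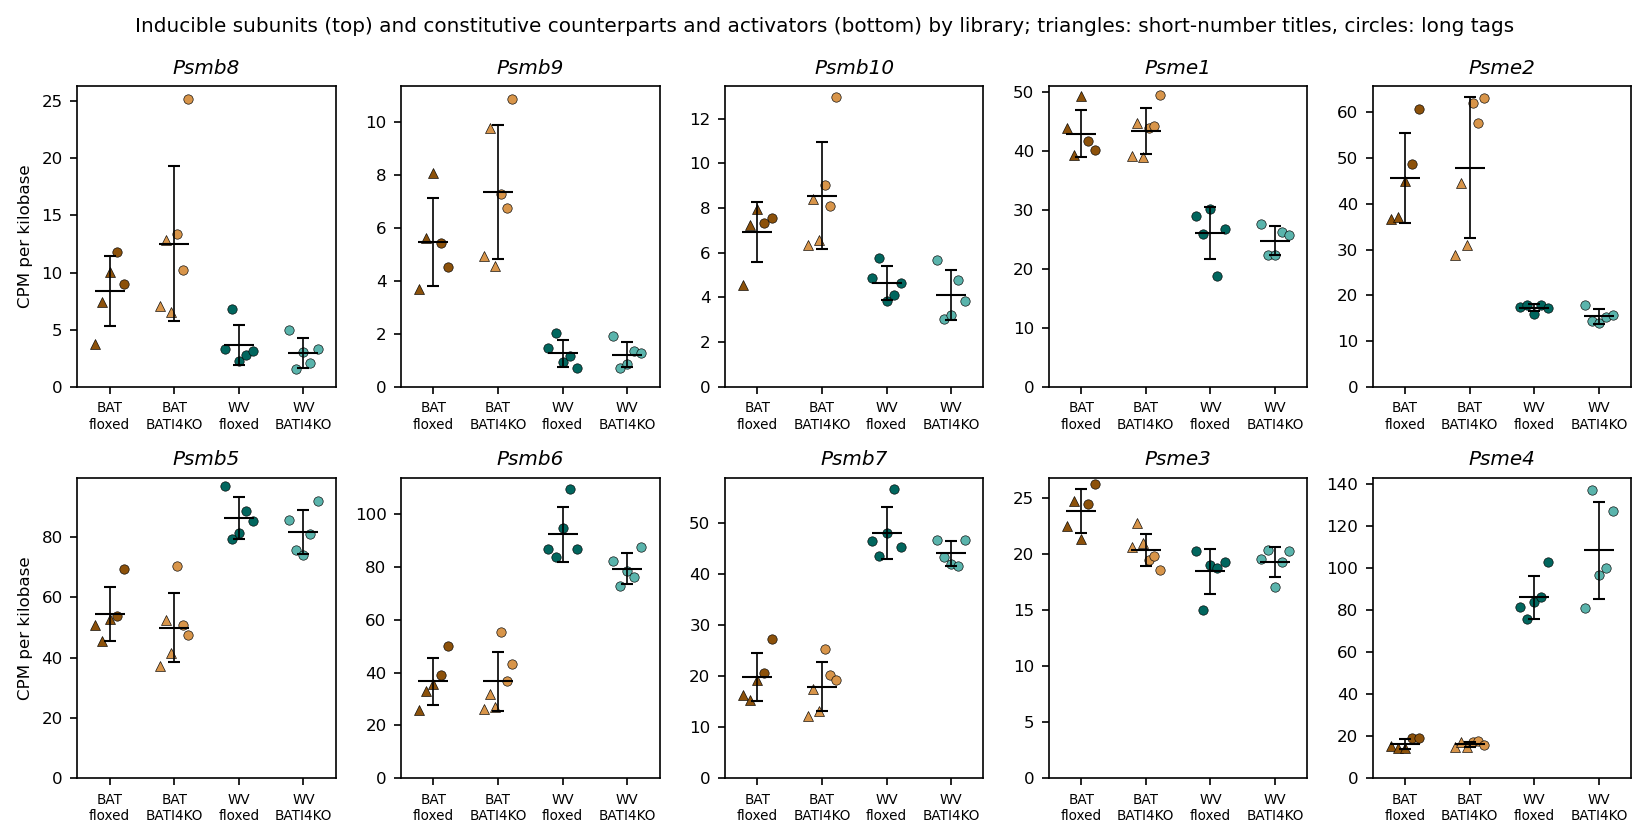
CPM per kilobase (vertical axes, from 0) of the 5 inducible genes (top) and of Psmb5, Psmb6, Psmb7, Psme3 and Psme4 (bottom) in each of the 21 libraries, grouped by tissue and genotype. Points are libraries, triangles those with short title numbers, and bars show mean and SD; the inducible genes sit lower in WV and Psmb5, Psmb6, Psmb7 and Psme4 sit higher there.

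The immunoproteasome genes were lower in muscle than in brown fat, in floxed and in BATI4KO mice alike. All 5 inducible genes passed as lower in both genotypes, where 34.1% (floxed) and 37.4% (BATI4KO) of the 16632 models tested passed as lower. Their median log2 difference, WV minus BAT, was -1.60 in floxed and -1.91 in BATI4KO mice, beside -0.11 and -0.14 over all models. Unless stated, tissue differences are adjusted for title style, so they can depart from the ratio of the printed CPM. Without that adjustment the inducible median was -1.19 in floxed and -1.64 in BATI4KO mice, beside -0.14 and -0.16 over all models. The libraries of the 2 tissues did not overlap for 3 of the 5 in floxed and 5 of the 5 in BATI4KO mice, beside 26.3% and 28.8% of all models in that direction. These calls and directions held under each of the 23 alternatives in floxed and the 24 in BATI4KO mice, including every scaling. In whole tissue, fewer cells of a type and less RNA per cell cannot be told apart.

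Psmb9, a catalytic subunit that favours hydrophobic peptide ends, was at 2.97, 3.65, 4.37, 4.53 and 6.50 CPM in floxed BAT and at 3.68 to 8.73 (median 5.65) in BATI4KO BAT. In WV it was at 0.571, 0.740, 0.930, 1.18 and 1.65 CPM in floxed and 0.565, 0.702, 1.02, 1.07 and 1.54 in BATI4KO libraries. Every WV library lay under every BAT library, and the log2 differences were -2.17 in floxed (SE 0.35, edgeR adjusted p = 1.57e-05) and -2.64 in BATI4KO mice (SE 0.33, adjusted p = 3.51e-07).

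Psmb8, the inducible partner of Psmb5, was at 4.57, 9.06, 11.1, 12.3 and 14.4 CPM in floxed BAT and at 2.78, 3.42, 3.85, 4.08 and 8.28 in floxed WV. These groups overlapped, because BAT_FX_1 was low and WV_FX_5415 was high, and the log2 difference was -1.60 (SE 0.39, edgeR adjusted p = 0.00111). In BATI4KO mice Psmb8 was at 7.99 to 30.8 (median 14.1) CPM in BAT and 1.90, 2.55, 3.68, 4.08 and 6.08 in WV, with no overlap (log2 -2.37, SE 0.37, adjusted p = 7.19e-06). Psmb10 was at 5.80, 9.18, 9.32, 9.60 and 10.1 CPM in floxed BAT and 4.88, 5.20, 5.90, 6.19 and 7.32 in floxed WV. Only BAT_FX_1 fell among the WV values, and the log2 difference was -0.79 (SE 0.22, adjusted p = 0.00316), with -1.22 in BATI4KO mice (adjusted p = 1.47e-05), where the groups did not overlap.

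The products of the 2 inducible activator genes form 1 ring, and both genes were lower in WV. Psme2 was at 35.8, 36.3, 43.9, 47.6 and 59.3 CPM in floxed BAT and at 15.6, 16.8, 17.04, 17.4 and 17.4 in floxed WV. Its WV libraries were tightly grouped and all lay under the BAT libraries (log2 -1.78, SE 0.13, edgeR adjusted p = 1.63e-10; -1.91 in BATI4KO mice). Psme1 was at 38.5, 39.1, 40.7, 42.9 and 48.1 CPM in floxed BAT and 18.4, 25.2, 26.1, 28.3 and 29.5 in floxed WV, also without overlap (log2 -0.74, SE 0.13, adjusted p = 3.54e-05; -0.83 in BATI4KO mice). Whether the differences of the 2 genes differ from each other was not tested.

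Some markers of other cells moved with this comparison, where 34.1% (floxed) and 37.4% (BATI4KO) of all models passed as lower. Of 5 general leukocyte markers 4 were lower in WV of floxed and 5 in WV of BATI4KO mice; their summed level was 18.0 to 36.6 CPM in floxed BAT, 21.02 to 79.5 in BATI4KO BAT, 8.84 to 23.6 in floxed WV and 8.35 to 15.7 in BATI4KO WV, with none at 0. Of the 8 macrophage and dendritic markers 1 passed as lower in floxed and 4 in BATI4KO mice. Their sums were 56.3 to 107.8 and 52.7 to 88.2 CPM in BAT and 38.9 to 141.9 and 57.0 to 95.3 in WV, with overlap throughout. Of the lymphocyte markers, 3 of the 8 tested were lower in WV of floxed mice (median log2 -0.87), near the share of all models. In BATI4KO mice 7 of 8 were lower (-1.61). The 9 in the list summed to 4.98 to 6.50 and 7.39 to 22.5 CPM in BAT and to 2.26 to 3.997 and 2.04 to 4.48 in WV, with no overlap between tissues. All 5 endothelial markers were lower in WV (360.3 to 559.6 CPM summed in BAT, 122.0 to 287.8 in WV). The part of these cells in the difference was not tested.

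**Figure D2:**
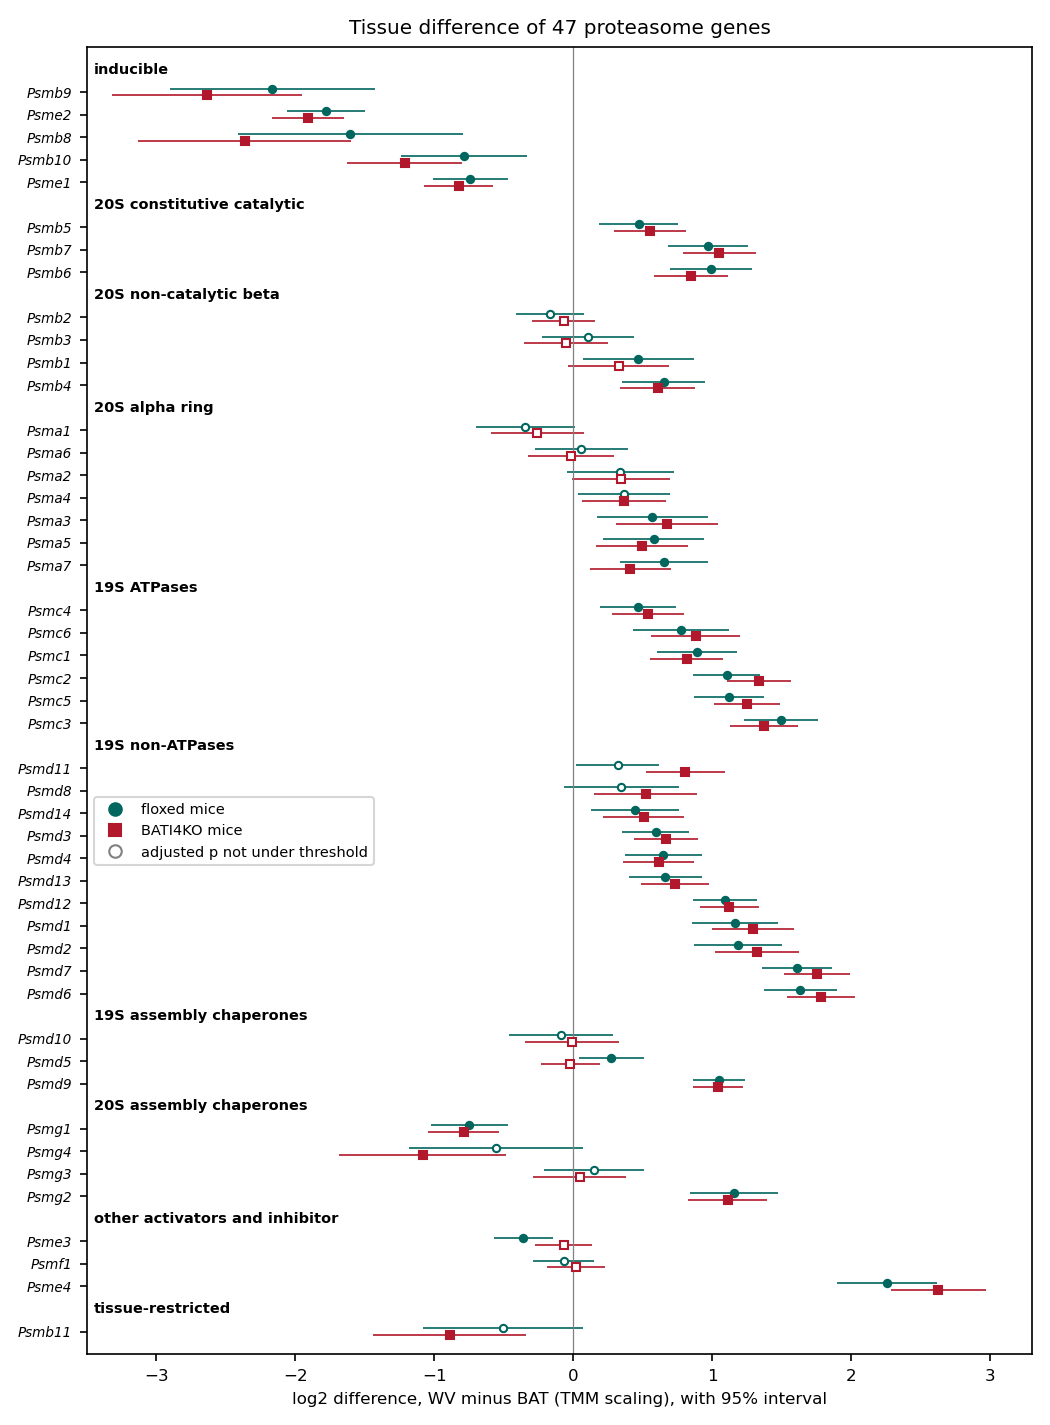
Log2 difference between tissues, WV minus BAT under TMM scaling (horizontal axis), with its 95% interval for the 47 tested genes by class; circles are floxed and squares BATI4KO mice, and open symbols did not pass the adjusted threshold. All 5 inducible genes lie left of 0, and every constitutive catalytic and ATPase gene lies right of it under TMM. Library totals move the whole core leftward, to medians of -0.03 in floxed and -0.30 in BATI4KO mice. With them 5 core genes pass as lower in floxed and 14 in BATI4KO mice. Among the constitutive catalytic genes, Psmb5 is then left of 0 in both genotypes and Psmb6 in BATI4KO mice.

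The constitutive subunits were higher in muscle under TMM scaling. Of the 47 genes 27 passed as higher and 7 as lower in floxed mice, and 28 and 8 in BATI4KO mice, where 31.7% and 33.1% of all models tested passed as higher. Of the 31 genes of the 20S and 19S core 23 were higher in floxed and 25 in BATI4KO mice and 0 lower (median log2 0.65 and 0.67). The tissues did not overlap for 25 of the 31 in floxed and 22 in BATI4KO mice, beside 25.7% and 27.6% of all models in that direction. In all, 25 genes were higher in both genotypes, 25 of 27 and 25 of 28, and 6 were lower in both; the 2 contrasts share 1 estimate of the spread. Genes past the threshold (adjusted p under 0.05) in floxed mice alone were Psmb1, Psmd5 and Psme3, in BATI4KO mice alone Psma4, Psmb11, Psmd8, Psmd11 and Psmg4, and none of these differed between genotypes by the interaction test.

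These directions depended on the scaling for the core but not for the inducible genes. With library totals in place of TMM the median of all models moved to -0.79 in floxed and -1.09 in BATI4KO mice, and the core then had 8 genes higher and 5 lower in floxed (median -0.03) and 7 higher and 14 lower in BATI4KO mice (median -0.30). Relative to the median of all models, the core stood at 0.76 under both scalings in floxed mice, and at 0.81 (TMM) and 0.79 (totals) in BATI4KO mice. The inducible genes stood at -1.50 and -1.46 in floxed mice and at -1.77 and -1.77 in BATI4KO mice on the same footing. With the 10 muscle markers left out of the totals, an alternative chosen after seeing the data, 17 core genes were higher and 2 lower in floxed mice and 13 and 4 in BATI4KO mice. Values are under TMM wherever no other scaling is named.

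Each of the 3 constitutive catalytic genes was higher in WV in both genotypes, the opposite direction from its inducible partner. Psmb5 was at 39.8, 44.3, 46.04, 46.9 and 60.3 CPM in floxed BAT and 69.2, 70.9, 74.4, 77.2 and 84.3 in floxed WV (log2 0.47, SE 0.14, edgeR adjusted p = 0.00454; -0.22 with library totals). Psmb6 was at 26.8, 34.1, 36.98, 40.7 and 51.9 CPM in floxed BAT and 86.8, 89.9, 90.1, 98.1 and 114 in floxed WV (log2 0.99, SE 0.14, adjusted p = 2.64e-06; 0.31 with library totals). Psmb7 was at 49.9, 52.9, 61.96, 66.5 and 88.2 CPM in floxed BAT and 141, 147, 150.0, 155 and 183 in floxed WV (log2 0.97, SE 0.14, adjusted p = 2.45e-06; 0.29 with library totals). None of the 3 overlapped between tissues, and in BATI4KO mice the log2 differences were 0.55, 0.85 and 1.05.

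Among the other ring subunits the pattern was mixed. Of the 7 alpha ring genes 3 were higher in floxed and 4 in BATI4KO mice; Psma3 was at log2 0.57 and 0.67, while Psma1, which passed in neither, was at -0.35 and -0.26. Of the 4 non-catalytic beta genes Psmb4 passed in both genotypes (0.65 and 0.61) and Psmb2 and Psmb3 in neither (-0.17 and 0.10 in floxed mice).

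The genes of the 19S cap were nearly all higher in WV under TMM scaling. All 6 ATPase genes were higher in both genotypes (median log2 0.996 in floxed and 1.07 in BATI4KO mice), and of the 11 non-ATPase genes 9 were higher in floxed and 11 in BATI4KO mice. Psmd6 was at 28.1, 29.8, 30.6, 47.4 and 55.6 CPM in floxed BAT and at 138, 145, 146, 149 and 184 in floxed WV. After adjustment for title style the difference was 3.10-fold (log2 1.63, SE 0.13, edgeR adjusted p = 2.45e-10). Psmd7, the partner of the deubiquitinase Psmd14, was at 20.6, 20.7, 21.9, 35.8 and 47.1 CPM and 106, 111, 114, 129 and 136 (log2 1.61, SE 0.12, adjusted p = 1.65e-10). The ATPase gene Psmc3 was at 29.9, 30.3, 33.5, 58.5 and 75.95 CPM and 168, 171, 180.4, 194 and 222 (log2 1.50, SE 0.13, adjusted p = 1.19e-09). In each of these genes the 2 floxed BAT libraries with long tags were the highest of that group and still under every WV library. Psmd2, the base scaffold, differed by log2 1.18 in floxed mice, and Psmc2 by 1.34 in BATI4KO mice. For Psmd6, Psmd7 and Psmc3 the log2 difference with library totals was still 0.95, 0.92 and 0.81 in floxed mice.

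Psme4, the gene of the PA200 activator that caps the 20S core without ATP, had the largest rise from BAT to WV of the 47 genes in both genotypes. It was at 167, 171, 180.2, 221 and 225 CPM in floxed BAT and at 886, 953, 976, 1006 and 1203 in floxed WV. After adjustment for title style the difference was 4.78-fold (log2 2.26, SE 0.17, edgeR adjusted p = 2.03e-10). In BATI4KO mice it was at 173 to 204 (median 191) CPM in BAT and 946, 1129, 1169, 1484 and 1598 in WV. The adjusted difference there was 6.17-fold (log2 2.62, SE 0.16, adjusted p = 7.16e-12). Across the alternatives the value ranged from 1.56 to 2.38 in floxed and from 1.65 to 2.74 in BATI4KO mice. The nuclear activator gene Psme3 was at 57.5, 60.7, 65.9, 66.8 and 70.8 CPM in floxed BAT and 40.4, 50.5, 51.4, 52.02 and 54.6 in floxed WV and passed as lower (log2 -0.36, SE 0.10, adjusted p = 0.00426); without WV_FX_5415 it no longer did (-0.21, adjusted p = 0.0723). The inhibitor gene Psmf1 was at 17.1 to 20.02 CPM in floxed BAT and 14.03 to 20.4 in floxed WV, with overlapping groups (log2 -0.07, 95% interval -0.29 to 0.15).

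The assembly chaperones did not move as a group. Psmg2 was higher in WV in both genotypes (log2 1.16 and 1.11), whereas its binding partner Psmg1 was lower (-0.75 and -0.79; edgeR adjusted p = 4.28e-05 and 7.01e-06). Psmg1 was at 10.7 to 15.8 CPM in floxed BAT and 8.14 to 9.42 in floxed WV. Psmg4 passed as lower in BATI4KO mice (-1.08), at 0.525 to 1.39 CPM in WV. Of the 19S chaperones Psmd9 was higher in both (1.05 and 1.04) and Psmd10 passed in neither (-0.09 and -0.01).

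The balance of inducible to constitutive genes was also computed within each library, where scaling between libraries cancels; these ratios are descriptions with no test. Per kilobase, Psmb9 was at a geometric mean of 0.147 of Psmb6 in floxed BAT and 0.197 in BATI4KO BAT, and at 0.0128 and 0.0144 in WV. Psmb10 was at 0.351 and 0.477 of Psmb7 in BAT and at 0.0961 and 0.0909 in WV. Psmb8 was at 0.145 and 0.230 of Psmb5 in BAT and at 0.0394 and 0.0340 in WV. The tissues did not overlap for Psmb9/Psmb6 and Psmb10/Psmb7; for Psmb8/Psmb5 the log2 ratio of BAT_FX_1 (-3.77) was under that of WV_FX_5415 (-3.55). The activator genes were set over Psme3, the gene of a separate activator. Psme2 exceeded Psme3 in all BAT libraries (log2 ratio 0.48 to 1.76), and the log2 ratio was -0.51 to 0.25 in WV. For Psme1/Psme3 the tissues overlapped, at log2 ratios of 0.61 to 1.41 in BAT and 0.0052 to 0.78 in WV.

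**Figure D3:**
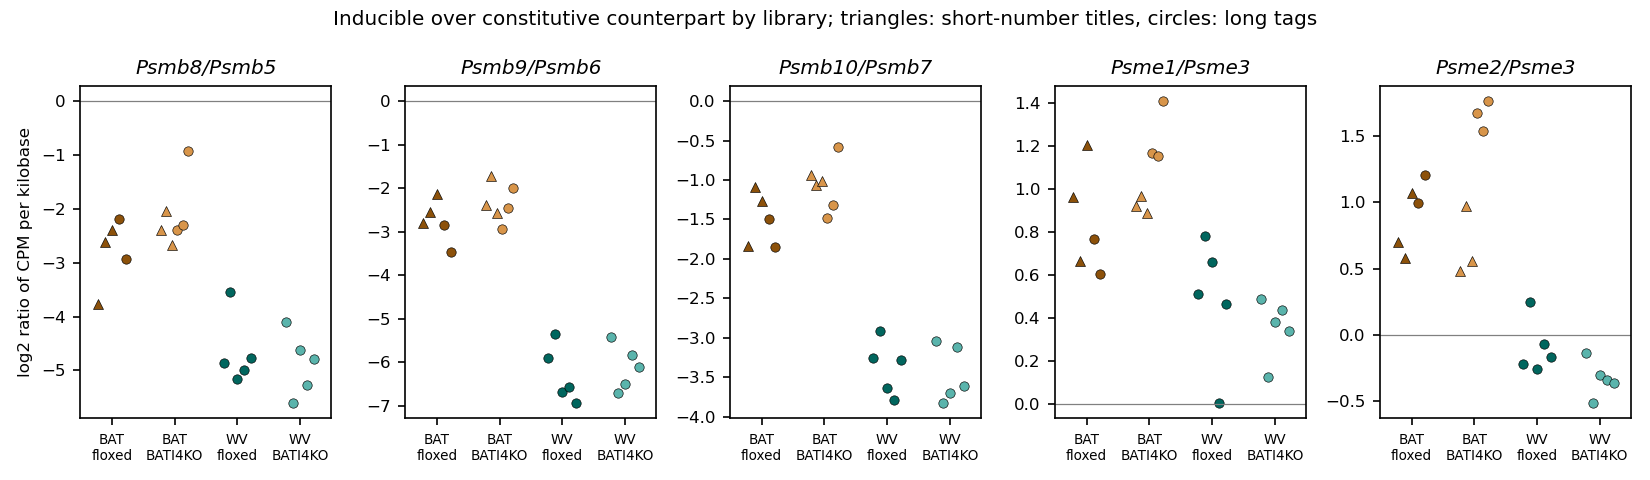
Log2 ratio per kilobase (vertical axis) in each library by tissue and genotype. Shown are Psmb8, Psmb9 and Psmb10 over their constitutive counterparts, and Psme1 and Psme2 over Psme3, the gene of a separate activator. Triangles are libraries with short title numbers. The WV libraries lie under the BAT libraries for Psmb9/Psmb6, Psmb10/Psmb7 and Psme2/Psme3, and 1 library of each tissue crosses for Psmb8/Psmb5. For Psme1/Psme3 the tissues overlap.

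The inducible catalytic genes varied together among BAT libraries, and only in part among WV libraries. Over the 11 BAT libraries, as deviations from the mean of their genotype and title style, Psmb8 and Psmb9 had Pearson's r = 0.96 and Spearman's rho = 0.93 (two-sided exact permutation test within genotype and style, p = 0.0023 for both, the smallest that the 432 arrangements can give, adjusted p = 0.045 and 0.046 over 20 relations; r = 0.95 without the 2 libraries farthest from the median). Psmb8 and Psmb10 had r = 0.96 and rho = 0.92 (exact permutation p = 0.0093 for both, adjusted p = 0.045 and 0.047; r = 0.93 without 2). Psmb9 and Psmb10 had r = 0.89 and rho = 0.87 (exact permutation p = 0.0093 and 0.016, adjusted p = 0.045 and 0.065; r = 0.90 without 2) in BAT. Over the 10 WV libraries the same pair had r = 0.82 and rho = 0.79 (exact permutation p = 0.0060 and 0.0094, adjusted p = 0.045 and 0.047; r = 0.93 without 2). For Psmb8 and Psmb9 in WV, r = 0.77 and rho = 0.62 (exact permutation p = 0.019 and 0.075, adjusted p = 0.047 and 0.17) fell to r = 0.40 without the 2 libraries, so that relation rested on them. Psmb8 and Psmb10 did not pass in WV (r = 0.71, rho = 0.61, exact permutation p = 0.035 and 0.099, adjusted p = 0.078 and 0.17; r = 0.29 without 2). Psme1 and Psme2 had r = 0.64 and rho = 0.55 in BAT and r = 0.14 in WV, which did not pass (exact permutation p for r = 0.069 and 0.65, adjusted p = 0.099 and 0.65). Psme2 and Psmb10 had r = 0.59 and rho = 0.62 in BAT (exact permutation p = 0.012 and 0.0093, adjusted p = 0.045 and 0.047, r = 0.67 without 2). In WV they had r = 0.82 and rho = 0.71 (exact permutation p = 0.014 and 0.045, adjusted p = 0.045 and 0.13, r = 0.63 without 2). Psme2 and Psmb9 in WV had r = 0.74 and rho = 0.67 (exact permutation p = 0.016 and 0.045, adjusted p = 0.045 and 0.13, r = 0.83 without 2). No other relation of Psme1 or Psme2 passed. Of the 20 relations 8 passed for r and 4 for rho. Psmb8 and Psmb9 are neighbours within 20 kilobases, as are Psme1 and Psme2.

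Loss of Irf4 in brown fat was compared first within BAT. None of the 47 genes passed, where 0.0436% of the 16051 models tested did (7 models). In none did the genotypes separate without overlap, beside 0.928% of all models, and 3 genes were at an unadjusted p under 0.05, beside 14.7% of all models. DESeq2 and limma voom also called 0 of the 47. Of all models DESeq2 called 199 higher and 175 lower, and limma voom 3 and 5. The 3 with the smallest p, none past the threshold, were Psme3 (log2 -0.23, SE 0.08, edgeR adjusted p = 0.225), Psmd6 (-0.27, adjusted p = 0.247) and Psmc2 (-0.22, adjusted p = 0.334). Psme3 was at 57.5, 60.7, 65.9, 66.8 and 70.8 CPM in floxed and 50.1 to 61.3 (median 54.6) in BATI4KO BAT, with overlap.

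The signs of the differences in BAT split by class, without passing. Of the 47 genes 39 were below 0 (median -0.10), beside 51.2% of all models; of the ATPases all 6, with a median of -0.20. With library totals the median of the 47 was 0.03 and that of all models 0.13, so the sign of the members' median depended on the scaling, while relative to all models it was -0.10 under TMM and -0.09 with totals. Of the inducible genes 4 of 5 were above 0. Psmb8, at 4.57, 9.06, 11.1, 12.3 and 14.4 CPM in floxed and 7.99 to 30.8 (median 14.1) in BATI4KO BAT, had a log2 difference of 0.47 (95% interval -0.18 to 1.11, edgeR adjusted p = 0.485). The groups overlapped, and BAT_KO_5494 alone was above 20 CPM; without it the value was 0.27, and it was 0.31 without BAT_KO_2. Psmb9 was at 0.41 (-0.16 to 0.98), Psmb10 at 0.25 (-0.13 to 0.63), Psme1 at 0.01 (-0.19 to 0.21) and Psme2 at -0.04 (-0.32 to 0.25). Psmb9 was at 0.24 without BAT_KO_2, and Psmb10 to 0.14 without BAT_KO_5494 and 0.16 without BAT_FX_1.

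Some summed markers of other cells were higher in BATI4KO than in floxed BAT. The 9 lymphocyte markers summed to 4.98 to 6.50 CPM in floxed and 7.39 to 22.5 in BATI4KO BAT, with no overlap, and the 8 that were tested had a log2 difference above 0, none past the threshold. The highest sum was that of BAT_KO_5414, with the next library at 9.89. BAT_KO_5494, the library highest in Psmb8, was at 7.68. Summed muscle markers were 133.3 to 1009 CPM in floxed and 546.3 to 16110.0 in BATI4KO BAT, and all 10 had a log2 difference above 0 (median 2.68), none past the threshold. With a muscle score as a covariate the median of the 47 genes was -0.01 and that of the inducible genes 0.28. Other lists differed in sign. Below 0 were 6 of 8 macrophage and dendritic markers (median -0.09), 4 of 5 endothelial, 7 of 8 adipocyte and 3 of 5 fibroblast markers. All 5 general leukocyte and all 3 red blood cell markers were above 0. None of these passed the threshold. The part of lymphocytes or of other cells in the inducible values was not tested.

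**Figure D4:**
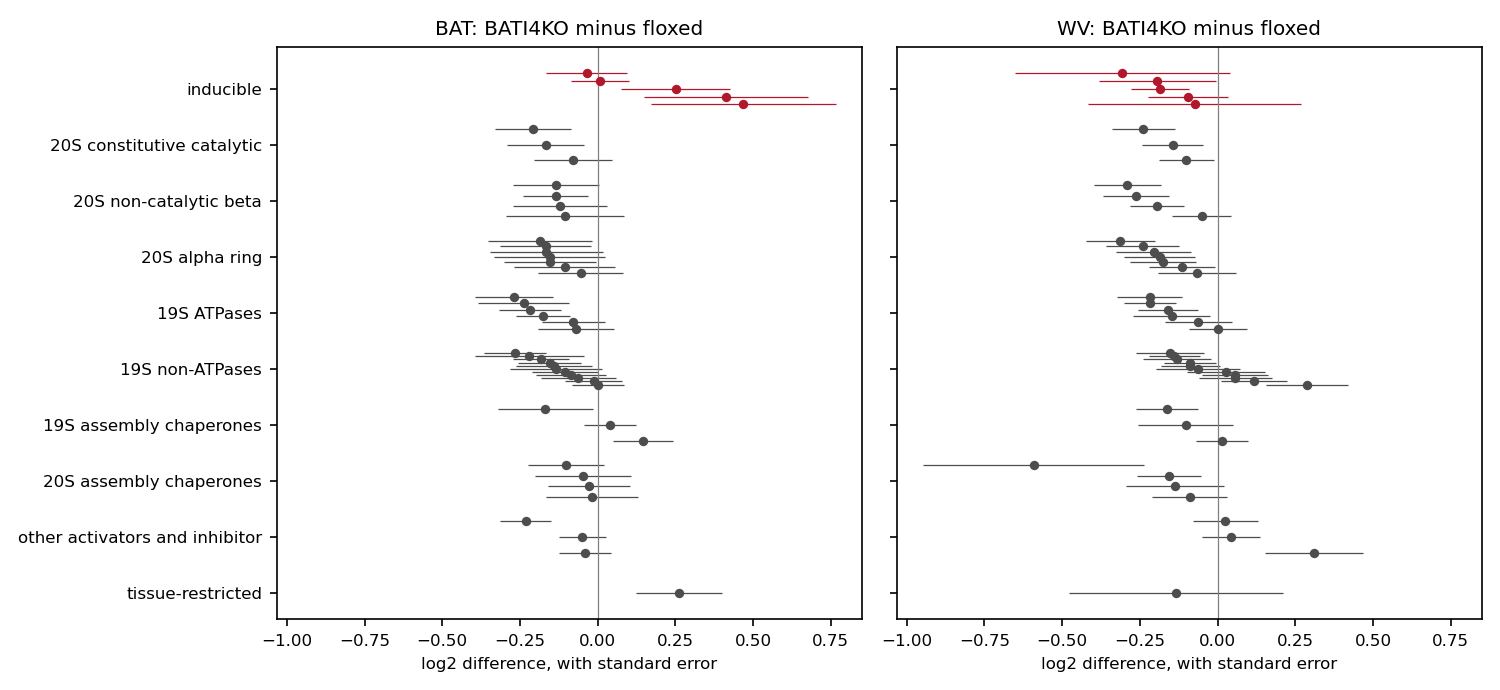
Log2 difference between genotypes, BATI4KO minus floxed (horizontal axes, same scale), with standard errors, in BAT (left) and WV (right); each point is 1 of the 47 tested genes, by class, with the 5 inducible genes in red. No gene passed the threshold in either tissue; 4 of 5 inducible genes lie above 0 in BAT and 0 of 5 in WV.

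In WV, where Irf4 was not targeted, none of the 47 genes passed either, beside 0.00688% of 14529 models (1 model). At an unadjusted p under 0.05 were 6, beside 8.91% of all models. DESeq2 and limma voom called 0 of the 47. Of all models DESeq2 called 27 higher and 70 lower, and limma voom 1 and 0. The smallest p-values belonged to Psma7 (log2 -0.31, SE 0.11, edgeR adjusted p = 0.445), Psmb3 (-0.29, adjusted p = 0.471) and Psmc4 (-0.22, adjusted p = 0.494). Psmc4, at 87.5, 91.8, 91.9, 97.4 and 105 CPM in floxed and 78.7, 82.7, 83.3, 84.4 and 84.5 in BATI4KO WV, was the 1 gene of the 47 whose groups did not overlap, beside 0.723% of all models that separated in that direction, downward. In all, 37 of the 47 were below 0 (median -0.13), beside 51.5% of all models. The 5 inducible genes were all below 0, Psmb8 at -0.31 (95% interval -1.06 to 0.44) and Psme2 at -0.18 (-0.39 to 0.02, edgeR adjusted p = 0.598), but without WV_FX_5415 Psmb8 stood at 0.05 and Psmb9 at 0.19. That library also had the highest summed leukocyte (23.6 CPM), macrophage (141.9 CPM), adipocyte (194.9 CPM) and fibroblast (2267 CPM) markers in WV. Its summed muscle markers were the lowest there (257300 CPM). The part of these cells in the values of Psmb8 and Psmb9 was not tested.

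The genotype difference was then compared between tissues as an interaction. None of the 47 genes passed, beside 0.0180% of 16632 models (3 models), and 3 were at an unadjusted p under 0.05, beside 10.6% of all models. DESeq2 and limma voom called 0 of the 47. Of all models DESeq2 called 21 higher and 33 lower, and limma voom 1 and 1. The smallest p-values belonged to Psmd11 (log2 0.49, SE 0.17, edgeR adjusted p = 0.330), Psme3 (0.29, adjusted p = 0.419) and Psmd5 (-0.30, adjusted p = 0.449). All 5 inducible genes were below 0 (median -0.43), as were 51.8% of all models, Psmb8 at -0.76 (95% interval -1.76 to 0.23, adjusted p = 0.600), beside a median of -0.02 over all models. Without WV_FX_5415 the inducible median was -0.21 and Psmb8 stood at -0.41. The opposite signs of Psmb8, Psmb9, Psmb10 and Psme1 in the 2 tissues were thus not told apart by this test.

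Within BAT the level of proteasome RNA followed the style of the title. Summed over the 48 genes it ranged over 1555 to 2059 CPM where titles have short numbers (6 libraries) and 2301 to 3039 where they have long tags (5 libraries), with no overlap, and 4555 to 5412 in WV. As a share of library counts, without TMM, the 48 genes took 0.233 to 0.372% in BAT and 0.290 to 0.431% in WV, so the tissues overlapped. Of the 47 genes 19 were higher in every long-tag library than in every short-number library, beside 9.52% of all models, and 1 (Psmb11) was lower in each, beside 6.50%. By class these were 4 of 6 ATPases, 9 of 11 non-ATPase genes, 2 of 7 alpha ring genes, 2 of 3 constitutive catalytic genes, 1 of 3 19S chaperones (Psmd9) and 1 of 5 inducible genes. The median log2 difference, long tags minus short numbers, was 0.65 for the 31 core genes, 0.40 for the inducible genes and 0.004 for all models. The meaning of the styles is not given in the labels. Title style was a term in every fit with BAT; without it the median tissue difference was 0.81 in floxed and 0.78 in BATI4KO mice, and within the 8 long-tag libraries whose tag occurs in both tissues 29 genes were higher and 7 lower in floxed and 30 and 7 in BATI4KO mice.

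**Figure D5:**
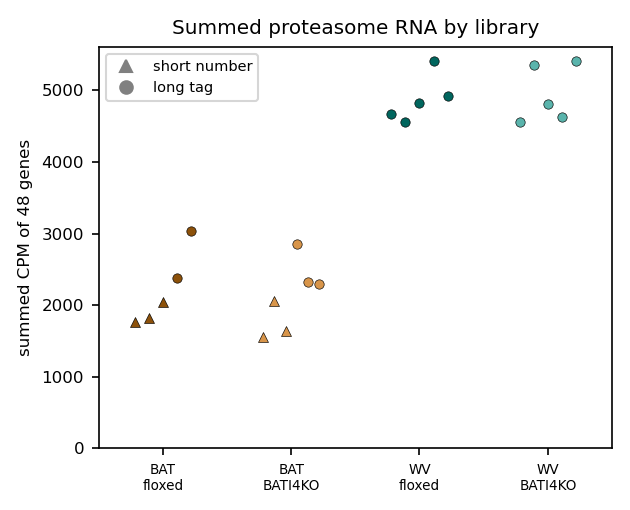
Summed CPM of the 48 genes (vertical axis, from 0) in each library by tissue and genotype; triangles are libraries with short title numbers and circles those with long tags. In BAT the circles lie above the triangles in both genotypes, and all WV libraries lie above both on this TMM scale; as a share of library counts the tissues overlap.

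Genes that work with the proteasome were read from 4 further lists, under TMM alone. Of 9 assembly and accessory genes 6 were higher in WV in both genotypes, led by AI314180, the gene of the adaptor Ecm29 (log2 2.12 and 2.35), and including Akirin2 (0.54 and 0.78), which carries proteasomes into the nucleus. The deubiquitinase gene Uchl5 was at 1.15 and 0.95. Of 8 transcriptional and stress regulators 5 were higher and 1 lower in floxed and 6 higher in BATI4KO mice, with Zfand5, a proteasome-binding zinc finger gene, at 2.997 and 3.05 (edgeR adjusted p = 4.16e-13 and 8.51e-14), the heat shock factor gene Hsf1 at 1.29 and 1.46 and Keap1, whose product restrains the related factor Nfe2l2, at 1.22 and 1.18. Nfe2l1 itself was at 0.62 and 0.95, higher in both. Of 13 ubiquitin genes and shuttles 5 were higher and 3 lower in floxed and 7 and 3 in BATI4KO mice; the shuttle gene Rad23b and the unfoldase gene Vcp were at 1.09 and 1.13 in floxed mice. Of all models tested, 31.7% were higher and 34.1% lower in floxed and 33.1% and 37.4% in BATI4KO mice. For the ubiquitin list, 5 of 13 higher in floxed mice is near that share and 7 of 13 in BATI4KO mice is above it. Its 3 of 13 lower is under that share in both genotypes. These shares were not tested against each other.

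Genes that carry and present the peptides were mostly lower in WV, as the inducible subunits were. Of 20 antigen presentation and interferon genes 14 were lower and 3 higher in WV of floxed mice and 16 and 3 in BATI4KO mice, at medians of -1.41 and -1.66, where 34.1% and 37.4% of all models were lower. The peptide transporter gene Tap2 was at log2 -1.91 and -2.27 (edgeR adjusted p = 9.01e-11 and 1.88e-12), while Ifngr2 and Jak2, which relay the interferon-gamma signal, were higher in WV, at 3.32 and 2.40 in floxed mice. In BAT 17 of the 20 had a genotype difference above 0, where 51.2% of all models were below 0, and none passed (Tap2 0.55, edgeR adjusted p = 0.140; Tap1 0.77, 0.182; Ifngr2 0.27, 0.196). No gene of the 4 lists passed in either genotype comparison or in the interaction.

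Of the 48 genes 12 overlap another gene in RefSeq, among them Psme1 (Emc9), Psme4 (Erlec1), Psmf1 (Tmem74b) and Psmd10 (Atg4a), and 4 (Psma5, Psmb5, Psmb6 and Psmb7) have pseudogenes named after them. How the counting treated strand and reads with several matches is not stated in the sources at hand, so reads of these genes and their partners cannot be told apart.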

How the data were processed

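The authors deposited raw counts per gene model, in a BAT table and a WV table over the same models. Per the labels' protocols, total RNA was depleted of ribosomal RNA, copied from random hexamers and tagmented into libraries. The submitters' processing notes name the genome build mm9, featureCounts 1.4.6, SAMtools 0.1.19, TopHat2 2.0.14, Picard 2.2.4, edgeR and bcl2fastq 2.17.1.14, with order and settings not given in the sources used here. Libraries held 20219479 to 41773148 counts; replicates differed by more than counting noise (smallest chi-square per gene 32.9).

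Fits used edgeR 4.0.16 in R 4.3.3 (quasi-likelihood F test, TMM, filterByExpr, Benjamini-Hochberg over all models, threshold 0.05): the 11 BAT libraries with title style as covariate, the 10 WV libraries, and all 21 for the tissue contrasts and the interaction. Differences are log2, and their 95% intervals use edgeR's moderated degrees of freedom. DESeq2 1.42.0, limma 3.58.1 voom, other scalings, filters, covariates and left-out libraries were alternatives. Scripts were tested on simulated data. Members and lists were chosen with earlier results of these data known. Named were the inducible genes, their counterparts, Psme3, Psme4, Psmf1, up to 5 members per direction with the largest change, otherwise the 3 smallest p, and up to 3 genes per further list; class examples and Nfe2l1, named beyond this rule, were chosen after their values were seen. Paaf1, Hba-a1 and Hbb-b2 of the lists matched no symbol, and some list genes are not reported here by name. Red blood cell markers (3 of 3 lower in WV) and fibroblast markers (5 of 5 higher) were also read in the tissue contrasts.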

Additional observations from a re-analysis of the deposited data

Results flagged for a closer look

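Of 64 sets of values checked within a group, 6 held a library far from the others by Dixon's criterion, where chance gives about 1 in 20. In BATI4KO BAT, library BAT_KO_5494 had 30.8 CPM of Psmb8, with the next library at 16.4, and a log2 Psmb8/Psmb5 ratio of -0.92, with the next at -2.03. In floxed WV, library WV_FX_5415 had 8.28 CPM of Psmb8, with the next at 4.08, a log2 Psmb8/Psmb5 ratio of -3.55, with the next at -4.76, and the lowest Psme3 at 40.4 CPM, with the next at 50.5. In floxed BAT, library BAT_FX_1 had the lowest Psmb10 at 5.80 CPM, with the next at 9.18. BAT_FX_1 also had the lowest summed leukocyte markers of its group (18.0 CPM). BAT_KO_5494 did not have the highest of its group, at 40.05 CPM beside 79.5 in BAT_KO_5414. The part of these markers in the flagged values was not tested.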

How the results depend on the processing

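The 5 inducible genes stayed past the threshold and lower in WV under every alternative run in both genotypes, and no alternative called a proteasome gene in either genotype comparison or in the interaction. With library totals 11 genes were higher and 18 lower in floxed mice (median -0.22) and 8 and 27 in BATI4KO mice (-0.42); with totals without the muscle markers, chosen after seeing the data, 20 and 11 (0.26) and 16 and 16 (0.093). The median in floxed mice without the title style term was 0.81, and the WV genotype median with library totals -0.25. With library totals Psmb5 was at -0.22 in floxed and -0.40 in BATI4KO mice, and Psmb6 at -0.096 in BATI4KO mice. In BATI4KO mice the tissue difference of Psmf1 was -0.16 by upper quartile, -0.94 with library totals, -0.0027 without a filter, -0.0042 at 1 CPM, -0.43 without the muscle markers, -0.033 with the tag as block and -0.032 in the same 8 libraries without it; Psme3 was at 0.037 with that genotype's libraries alone. In BAT the genotype difference of Psme1 was -0.0049 by RLE, -0.0042 by DESeq2, -0.11 with short numbers alone and -0.11 with their number as block; that of Psme2 was 0.0035 by upper quartile, 0.10 with library totals, 0.11 without the muscle markers, 0.062 without title style, 0.16 with long tags alone and 0.10 with the muscle score. The causes were not tested.

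Leaving out 1 library at a time gave 23 to 29 genes higher and 6 to 8 lower in floxed mice (median 0.37 to 0.58), 25 to 30 and 8 in BATI4KO mice (0.45 to 0.63), and medians of -0.19 to -0.04 in BAT and -0.16 to -0.09 in WV between genotypes. Values that crossed 0 were Psme1 (-0.036 to 0.067) and Psme2 (-0.12 to 0.052) in BAT, Psmb8 (-0.58 to 0.049, without WV_FX_5415) and Psmb9 (-0.31 to 0.19, without WV_FX_5415, WV_KO_5493 or WV_KO_5494) in WV, and the tissue difference of Psmf1 (-0.13 to 0.011 in floxed and -0.020 to 0.060 in BATI4KO mice).

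Libraries with the same short number did not all deviate together (correlations of 0.13, -0.11 and 0.08). For tags the correlations were -0.08 to 0.11, but with 2 shared tags per genotype this cannot tell whether a tag marks 1 mouse, and no label says so. With a replicate block 0 genes were called between genotypes in BAT (median -0.11), 29 were higher and 7 lower in floxed and 30 and 6 in BATI4KO mice, and 0 in the interaction; Psmg4 in BATI4KO mice no longer passed (-0.87, edgeR adjusted p = 0.0556). No paired analysis was possible in WV between genotypes because they share no numbers. Low counts in WV limit Psmb9 and Psmg4, each at 12 to 48 counts per library, and Psmb11, at 8 to 41.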
